A study of Mus musculus with 15 samples.

Results

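The proteasome is the large protease that degrades ubiquitin-tagged proteins, and the mRNAs of its subunits and assembly factors were described here in BV2 cells, a mouse microglial line immortalized in culture. Genes were taken by symbol: Psma, Psmb, Psmc, Psmd, Psme, Psmf or Psmg followed by a digit, without the 5 symbols that carry the pseudogene mark -ps. This gave 50 genes of the 54390 listed. Of these, 48 had enough reads for testing, among 14237 genes tested in all. The other two, Psma8, a testis-type alpha subunit, and Psmb11, the thymus-type beta subunit, had 0 counts in every library, where 3 counts would make 0.0669 to 0.132 CPM (counts scaled to a common library size, the unit of all levels below). The symbol rule also took in Psmc3ip, a meiotic recombination cofactor that is not a proteasome subunit. Counts, medians and sums over the 48 or 50 genes include it unless stated otherwise, and its levels are described separately.

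Bulk RNA sequencing was done on 15 libraries in 4 groups. WT cells kept in medium alone (WT nonfoamy, n = 4) or loaded overnight with soluble cholesterol at 20 µg/ml (WT foamy, n = 4) were set against Trem2-/- cells in the same conditions (Trem2-/- nonfoamy, n = 3, and Trem2-/- foamy, n = 4). TREM2 is a lipid-sensing surface receptor of macrophages and microglia. The Trem2-/- cells came from individually isolated clones of a Cas9-expressing BV2 line that was itself 1 clone, so genotype and clone cannot be told apart. Nothing in the labels says that libraries of a group were separate cultures, and p-values then measure only the spread between these libraries. In bulk RNA, fewer cells of a kind and less RNA per cell cannot be told apart.

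The libraries held 23538963 to 41683825 counted reads. Macrophage genes were high (Csf1r averaged 469.6 CPM and Cd68 1449 CPM), whereas the homeostatic microglia genes Tmem119 and P2ry12 averaged 0.374 and 1.27 CPM and Sall1 had 0 counts. Trem2 itself was still counted in every library but was lower in Trem2-/- than in WT libraries, with log2 fold changes of -0.67 ± 0.08 (mean ± s.e.) without and -0.73 ± 0.07 with cholesterol (edgeR adjusted p = 2.85e-07 and 7.09e-08). A pair of WT libraries stood apart for the proteasome genes. WT nonfoamy library 3, the shallowest of all, gave the highest value of its group for 35 of the 48 tested genes, against 34.9% of all genes. WT foamy library 1 gave the lowest value of its group for 40 of 48, against 33.0% of all genes. Medians and counts of called genes are also given without them. Counts of signs, of unadjusted p and of genes whose libraries did not overlap were computed only with them.

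The 20S core is a barrel of 2 outer alpha rings, which gate the entry, and 2 inner beta rings, which hold the catalytic sites. The 19S particle caps the barrel. Its base contains a ring of ATPases that unfold substrates, and its lid removes ubiquitin chains. Interferon exchanges the catalytic subunits Psmb5, Psmb6 and Psmb7 for Psmb8, Psmb9 and Psmb10, giving the immunoproteasome, which favours peptides that fit MHC class I molecules. The PA28 activators Psme1 and Psme2 can replace the 19S cap. The transcription factor NRF1 (Nfe2l1) is known to raise constitutive subunit genes together when proteasome activity is short. NRF1 and NRF2 bind antioxidant response elements, and interferon regulatory factors bind repeats of a short A- and G-rich core.

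The promoters of 4 genes on which the results below turn are shown first. Psmb5 and Psmb8 are the constitutive and the interferon-inducible form of the same catalytic position, Psmb3 had the largest fall of any subunit in Trem2-/- nonfoamy cells, and Psme1 was the gene called higher in Trem2-/- cells in both conditions. Each sequence is 300 bases of GRCm38.p6 from RefSeq, from 250 bases before to 50 bases after the start site, read 5′ to 3′ on the gene's strand. The windows lie at chr14:54617946-54618245 (Psmb5, minus strand), chr17:34197945-34198244 (Psmb8, plus strand), chr11:97703184-97703483 (Psmb3, plus strand) and chr14:55578244-55578543 (Psme1, plus strand). Capitals mark matches, on either strand, to TGACNNNGC (the core of an antioxidant response element) or AANNGAAA (the core that interferon regulatory factors bind). In Psmb5 the capitals are the first motif. In Psmb3 and Psme1 they are the second motif, with a pair of separate matches in Psmb3 and a pair of overlapping ones in Psme1. The Psmb8 window held neither set of letters.
Psmb5: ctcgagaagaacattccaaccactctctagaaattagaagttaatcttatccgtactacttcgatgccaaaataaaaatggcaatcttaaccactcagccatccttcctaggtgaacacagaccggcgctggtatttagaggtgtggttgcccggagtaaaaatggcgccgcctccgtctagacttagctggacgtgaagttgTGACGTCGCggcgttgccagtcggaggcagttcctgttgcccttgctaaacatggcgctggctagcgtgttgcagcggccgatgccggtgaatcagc
Psmb8: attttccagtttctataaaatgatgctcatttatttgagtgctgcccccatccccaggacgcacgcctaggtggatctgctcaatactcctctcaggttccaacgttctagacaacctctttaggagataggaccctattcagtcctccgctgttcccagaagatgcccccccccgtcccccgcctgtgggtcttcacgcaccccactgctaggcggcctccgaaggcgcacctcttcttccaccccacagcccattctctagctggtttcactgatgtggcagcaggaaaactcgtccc
Psmb3: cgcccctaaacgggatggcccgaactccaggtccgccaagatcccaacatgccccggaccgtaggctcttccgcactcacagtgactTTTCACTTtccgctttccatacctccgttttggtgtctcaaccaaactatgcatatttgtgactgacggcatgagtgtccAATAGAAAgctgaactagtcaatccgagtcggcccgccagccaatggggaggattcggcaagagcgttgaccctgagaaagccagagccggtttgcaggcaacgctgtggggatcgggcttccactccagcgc
Psme1: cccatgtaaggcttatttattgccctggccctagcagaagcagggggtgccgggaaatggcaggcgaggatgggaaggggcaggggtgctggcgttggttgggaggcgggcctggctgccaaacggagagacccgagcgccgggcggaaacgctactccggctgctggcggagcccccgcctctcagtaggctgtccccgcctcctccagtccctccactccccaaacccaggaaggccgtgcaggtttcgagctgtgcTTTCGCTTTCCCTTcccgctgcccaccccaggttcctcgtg

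The RefSeq table held 45 promoter windows for 42 of the 50 genes. Psma8, Psmb1, Psmb2, Psmb7, Psmc3, Psmd3, Psmd7 and Psmg2 had no entry. TGACNNNGC was found in 6 of the 45 windows (13.3%, against 12.4% of the 32851 windows of all genes), those of Psmb5, Psmb6, Psmc6, Psmd9, Psmd12 and Psme4. AANNGAAA was found in 13 windows (28.9%, against 23.9% of all windows), those of Psma3, Psmb3, Psmb4, Psmb6, Psmc2, Psmd4, Psmd6, Psmd8, Psmd9, Psmd11, Psme1, Psmg3 and Psmg4. A pair of GAAA cores on 1 strand with 2 bases between them, the form of an interferon-stimulated response element and the form searched first, was found in 5 windows (11.1%, against 3.44% of all windows), those of Psmb3, Psmd4, Psmd9, Psme1 and Psmg4. These shares are descriptions without a test. Matches of the first motif did not overlap those of the second in the printed windows, and a match is a description of letters, not a binding site.

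Levels between genes were compared as CPM per kb of the principal transcript. In WT nonfoamy cells Psmb6 had the highest level (747 ± 112 CPM per kb, SD, n = 4), followed by Psma7 (436 ± 47.96) and the lid gene Psmd8 (383 ± 36.3). Other alpha and constitutive beta subunits lay between 69.7 (Psma3) and 268 (Psmb2). The ATPases of the 19S base lay from 56.4 (Psmc4) to 118 CPM per kb (Psmc6), a range that overlapped the first. The immunoproteasome genes had 35.0 ± 1.90 (Psmb8), 24.5 ± 2.30 (Psmb10) and 8.46 ± 1.28 CPM per kb (Psmb9). The lowest level among tested subunits was that of the inhibitor gene Psmf1 (6.85 ± 0.599). Psmb6, Psmd8 and Psma7 were the 3 highest genes in all 4 groups, and Psmd8 stood above Psma7 in the other three groups. Neighbours in this order mostly differed by less than the spread between libraries. The order also depended on the length used. Per kb of the exons of all transcripts, Psmb6 (318) and Psmd8 (193) were again the highest in WT nonfoamy cells. Psma7 (130) then stood below Psmb2 (191), Psma6 (189), Psma5 (187) and Psmb5 (156), and Psmb9 (3.12) stood below Psmf1 (4.05).

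Most proteasome mRNAs were lower in Trem2-/- than in WT cells kept without cholesterol. In Trem2-/- against WT nonfoamy cells, 32 of 48 genes were called lower and 2 higher (edgeR adjusted p below 0.05), where 22.6% of all tested genes were called lower and 21.0% higher. The median log2 fold change over the 48 genes was -0.41, beside 0.02 over all tested genes. For 33 genes every Trem2-/- library lay below every WT library (23.5% of all genes). Among the 31 constitutive 20S and 19S subunits, 25 fell, 1 rose and 5 were not called. The share of all counted reads that fell on the 50 genes was 0.776 to 0.807% in WT nonfoamy, 0.695 to 0.740% in WT foamy, 0.594 to 0.604% in Trem2-/- nonfoamy and 0.622 to 0.643% in Trem2-/- foamy libraries. These 4 ranges did not overlap, but they are shares of all reads, without the scaling used for CPM. Summed as CPM, the 50 genes reached 7216 to 8359 in WT nonfoamy and 6258 to 7239 in WT foamy libraries. They reached 6171 to 6425 in Trem2-/- nonfoamy and 6434 to 6839 in Trem2-/- foamy libraries. On that scale the WT foamy range overlapped those of all other groups.

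**Figure D1:**
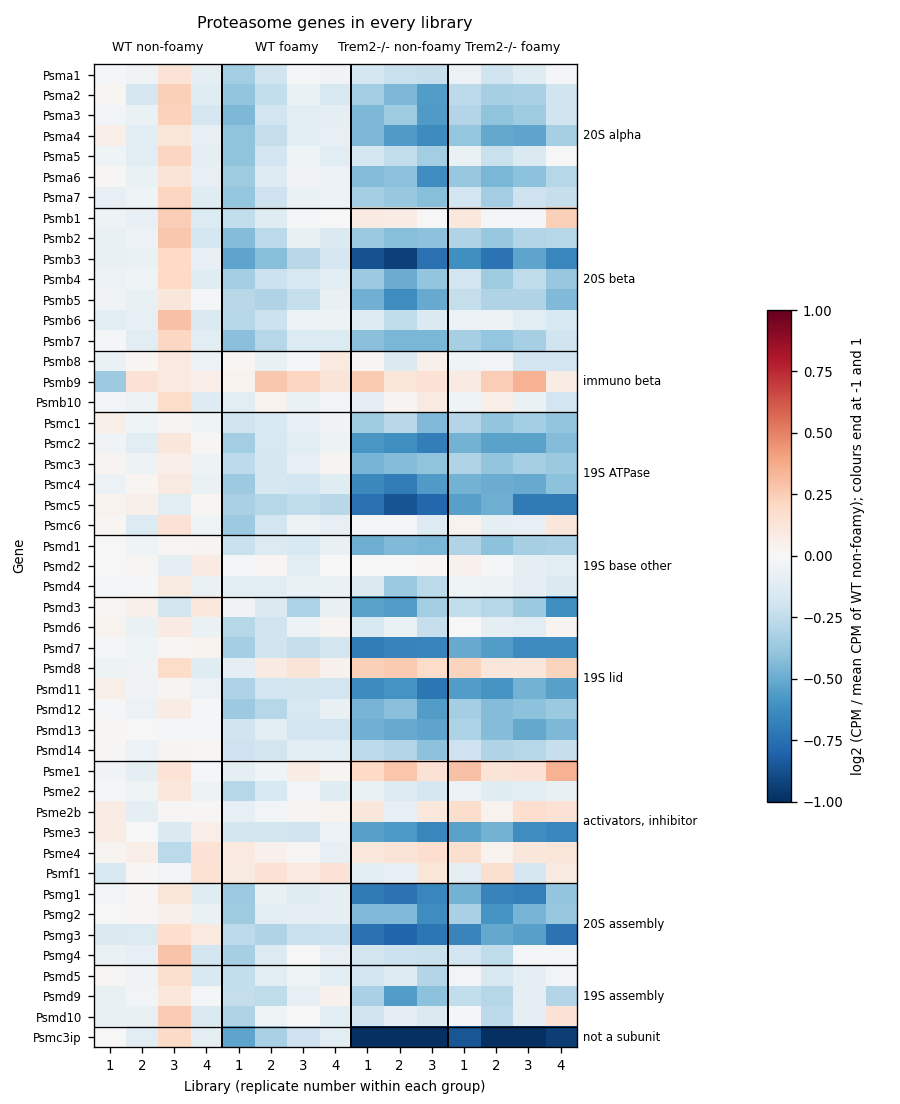
Each row is 1 of the 48 tested genes, grouped by role, and each column 1 of the 15 libraries. Colour gives log2 of CPM over the mean CPM of the 4 WT nonfoamy libraries, with blue lower and red higher and colours ending at -1 and 1. Blue fills most 20S, 19S and assembly rows of the 3 Trem2-/- nonfoamy libraries, whereas Psmb8, Psmb9, Psmb10, Psmd8 and Psme1 stay pale or red. WT nonfoamy library 3 is redder and WT foamy library 1 bluer than the rest of their groups.

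All 7 tested alpha ring genes fell in Trem2-/- nonfoamy cells, from -0.21 ± 0.08 for Psma1 to -0.55 ± 0.08 on the log2 scale for Psma4 (edgeR adjusted p = 0.0307 and 8.80e-06). In each of them the 3 Trem2-/- libraries lay below the 4 WT libraries. The Psma1 and Psma5 calls were lost in the absence of WT nonfoamy library 3 (-0.16 and -0.18) or of Trem2-/- nonfoamy library 2 or 3 (-0.20 in both cases for Psma1, -0.26 and -0.21 for Psma5), and that of Psma1 also in the absence of library 1 of that group. In Psma5, 49.96% of 50-base stretches are shared with other annotated genes, so its reads may be split.

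Of the 7 constitutive beta ring genes, 5 fell (Psmb2, Psmb3, Psmb4, Psmb5 and Psmb7). Psmb3, a structural subunit next to the catalytic ones, was counted at 118, 119, 142 and 117 CPM in the WT nonfoamy libraries, 86.1, 92.4, 103 and 110.2 in WT foamy, 68.0, 64.8 and 74.1 in Trem2-/- nonfoamy and 81.2, 74.5, 86.0 and 78.9 CPM in Trem2-/- foamy libraries. All Trem2-/- values lay below all WT values, and WT nonfoamy library 3 stood above the rest of its group. The closest pair was Trem2-/- foamy library 3 and WT foamy library 1 (86.01 and 86.09 CPM). In Psmb3, 17.8% of 50-base stretches are shared with other annotated genes, so its reads may be split. The log2 fold change of Psmb3 was -0.85 ± 0.09 (0.556-fold, edgeR adjusted p = 5.06e-08).

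Psmb5 carries the chymotrypsin-like site. It stood at 137, 133, 152 and 139 CPM in the WT nonfoamy libraries, 116, 114, 119 and 134 in WT foamy, 101, 91.1 and 99.3 in Trem2-/- nonfoamy and 119, 114, 114 and 103 CPM in Trem2-/- foamy libraries. The 3 Trem2-/- nonfoamy values were the lowest of all 15 libraries, and the change from WT nonfoamy was -0.53 ± 0.07 on the log2 scale (0.691-fold, edgeR adjusted p = 2.42e-06). In Psmb5, 54.1% of 50-base stretches recur in other annotated genes, including a pseudogene. Psmb7, the trypsin-like subunit, reached 261, 246, 305 and 246 CPM in the WT nonfoamy libraries, 199, 217, 241 and 241 in WT foamy, 198, 192 and 192 in Trem2-/- nonfoamy and 211, 202, 209.7 and 229.9 CPM in Trem2-/- foamy libraries. Its Trem2-/- nonfoamy libraries lay below every WT nonfoamy library, with a log2 fold change of -0.45 ± 0.08 (0.734-fold, edgeR adjusted p = 9.48e-05).

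Psmb6, the caspase-like subunit and the most abundant of the group per length, had 553, 563, 729.6 and 538 CPM in the WT nonfoamy libraries, 489, 514, 571 and 575 in WT foamy, 541, 501 and 540.4 in Trem2-/- nonfoamy and 573, 576, 549.7 and 536 CPM in Trem2-/- foamy libraries. Its groups overlapped, and the value of -0.18 ± 0.09 in nonfoamy cells was not called (edgeR adjusted p = 0.111). It was called lower with total counts alone as scaling (-0.31), without a filter on low counts (-0.18) and with trends on GC content and transcript length removed (-0.19). Psmb1 was not called either.

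**Figure D2:**
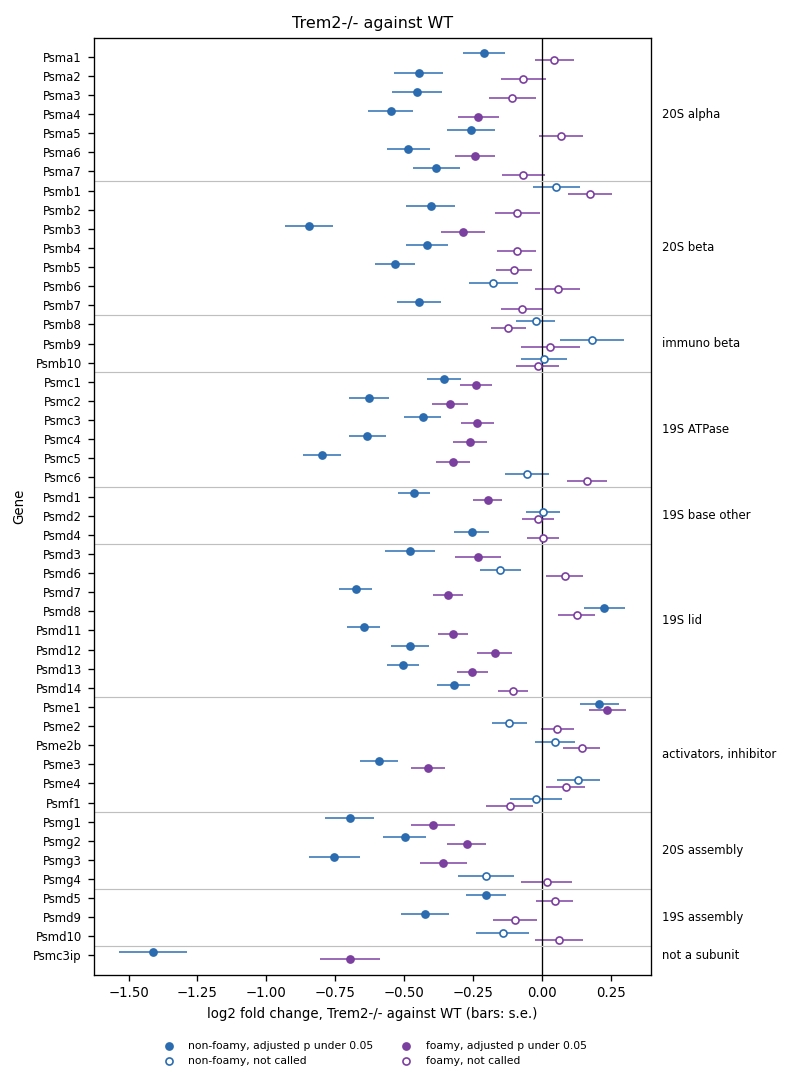
Log2 fold change of Trem2-/- against WT for each of the 48 tested genes, without cholesterol (blue) and with it (purple). Bars are s.e., filled points have an adjusted p under 0.05, and rows are grouped by role. Most blue points lie left of 0 and left of their purple partner; Psmd8 and Psme1 lie to the right, and the immunoproteasome genes sit around 0.

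The 3 expressed immunoproteasome genes were not called by edgeR in any comparison, although Psmb8 was called lower in Trem2-/- than in WT foamy cells with total counts alone as scaling (-0.25, edgeR adjusted p = 0.00922). Psmb8 was counted at 54.4, 57.8, 61.1 and 54.9 CPM in the WT nonfoamy libraries, 57.9, 54.1, 56.7 and 61.1 in WT foamy, 57.5, 51.6 and 59.1 in Trem2-/- nonfoamy and 55.4, 55.9, 50.001 and 49.8 CPM in Trem2-/- foamy libraries. The 4 groups overlapped throughout. In Trem2-/- against WT nonfoamy cells its log2 fold change was -0.02 ± 0.07, with a 95% interval from -0.17 to 0.13.

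Psmb9 (chr17:34181987-34187764 on GRCm38) lies near Psmb8 in the MHC region, with Tap1 between them. It stood at 8.87, 12.7, 12.2 and 11.98 CPM in the WT nonfoamy libraries, 11.7, 13.8, 13.3 and 12.5 in WT foamy, 13.7, 12.4 and 12.6 in Trem2-/- nonfoamy and 12.1, 13.6, 14.6 and 12.1 CPM in Trem2-/- foamy libraries. WT nonfoamy library 1 was the lowest of all 15, and the remaining values overlapped. The nonfoamy genotype difference was 0.18 ± 0.12 on the log2 scale (95% interval -0.06 to 0.43).

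Psmb10 reached 31.6, 31.1, 36.5 and 29.5 CPM in the WT nonfoamy libraries, 29.9, 32.9, 30.8 and 31.6 in WT foamy, 30.0, 32.8 and 34.2 in Trem2-/- nonfoamy and 31.2, 33.6, 30.7 and 28.2 CPM in Trem2-/- foamy libraries. Again no group stood apart, and its nonfoamy genotype difference was 0.01 ± 0.08 on the log2 scale (95% interval -0.17 to 0.19). This value changed sign with total counts alone (-0.13), where Psmb9 and Psmb8 were also not called in nonfoamy cells.

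The ratio of each immunoproteasome gene to its constitutive counterpart, taken per length in every library, is a description without a test. Its size depends on the transcript lengths used, whereas the order of the libraries within a pair does not. Psmb8 over Psmb5 was 21.9, 23.95, 22.1 and 21.8% in WT nonfoamy, 27.7, 26.2, 26.2 and 25.2% in WT foamy, 31.6, 31.3 and 32.9% in Trem2-/- nonfoamy and 25.6, 27.1, 24.2 and 26.7% in Trem2-/- foamy libraries. The Trem2-/- nonfoamy values were above all others, and the WT nonfoamy values below all others. Psmb10 over Psmb7 was 10.6 to 11.2% in WT nonfoamy and 13.4 to 15.7% in Trem2-/- nonfoamy libraries, which did not overlap, whereas both foamy groups (11.3 to 13.4% and 10.8 to 14.7%) overlapped each other. Psmb9 over Psmb6 ranged from 0.946 to 1.33% in WT nonfoamy and from 1.38 to 1.49% in Trem2-/- nonfoamy libraries. In each pair the nonfoamy Trem2-/- libraries lay above the nonfoamy WT libraries. The constitutive genes Psmb5 and Psmb7 were called lower there, and their inducible counterparts were not called.

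**Figure D3:**
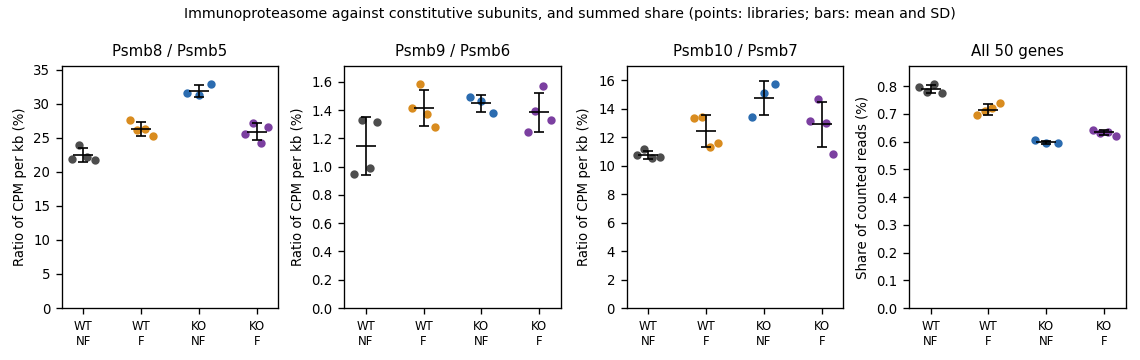
The first 3 panels give the ratio of CPM per kb of Psmb8 to Psmb5, Psmb9 to Psmb6 and Psmb10 to Psmb7, in percent, in each library; the last gives the share of counted reads on all 50 genes. Points are libraries, bars mean and SD, NF nonfoamy, F foamy and KO Trem2-/-. The Psmb8 to Psmb5 ratio is 21.8 to 23.95% in WT nonfoamy and 31.3 to 32.9% in Trem2-/- nonfoamy cells, and the summed share is highest in WT nonfoamy and lowest in Trem2-/- nonfoamy cells.

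Of the 6 ATPases of the 19S base, 5 fell in Trem2-/- nonfoamy cells and Psmc6 was not called. Psmc5 had the largest change. It had 86.2, 87.1, 78.0 and 85.1 CPM in the WT nonfoamy libraries, 67.2, 69.1, 70.4 and 69.3 in WT foamy, 50.1, 46.3 and 48.8 in Trem2-/- nonfoamy and 57.8, 60.0, 51.6 and 51.4 CPM in Trem2-/- foamy libraries. WT and Trem2-/- values were fully apart in both conditions, and the nonfoamy log2 fold change was -0.80 ± 0.07 (0.575-fold, edgeR adjusted p = 3.25e-09). Psmc4, another ATPase of the ring, was counted at 78.1, 82.4, 86.6 and 77.7 CPM in the WT nonfoamy libraries, 63.2, 72.2, 71.0 and 74.7 in WT foamy, 51.9, 50.1 and 54.8 in Trem2-/- nonfoamy and 58.5, 57.7, 57.4 and 61.0 CPM in Trem2-/- foamy libraries. Its WT and Trem2-/- libraries also did not overlap (-0.63 ± 0.07, edgeR adjusted p = 8.41e-08). Psmc2 fell by 0.63, Psmc3 by 0.43 and Psmc1 by 0.36 on the log2 scale. Among the non-ATPase base genes the scaffold Psmd1 fell by 0.46 and the ubiquitin receptor Psmd4 by 0.25, while Psmd2 was not called.

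In the 19S lid, 6 of 8 genes fell and 1 rose. Psmd7, the partner of the deubiquitinase Psmd14, stood at 151, 148, 155 and 156 CPM in the WT nonfoamy libraries, 120.5, 133, 129 and 134 in WT foamy, 94.2, 96.1 and 96.4 in Trem2-/- nonfoamy and 108, 104, 98.7 and 98.6 CPM in Trem2-/- foamy libraries. The Trem2-/- nonfoamy values were the lowest and the WT nonfoamy values the highest, with no overlap between genotypes (log2 fold change -0.68 ± 0.06 in nonfoamy cells, edgeR adjusted p = 5.73e-09). Psmd11, a lid scaffold, reached 106, 99.5, 104 and 98.04 CPM in the WT nonfoamy libraries, 82.4, 89.1, 89.7 and 89.1 in WT foamy, 65.9, 67.5 and 61.8 in Trem2-/- nonfoamy and 69.1, 67.6, 73.4 and 70.1 CPM in Trem2-/- foamy libraries. Its genotypes were likewise apart (-0.65 ± 0.06, edgeR adjusted p = 1.58e-08), and WT foamy library 1 was the lowest of its group. Psmd13, Psmd12, Psmd3 and Psmd14 fell by 0.50, 0.48, 0.48 and 0.32 on the log2 scale, and Psmd6 was not called.

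Psmd8 was the exception within the lid. It had 571, 576, 671 and 542 CPM in the WT nonfoamy libraries, 553, 624, 645 and 609 in WT foamy, 696, 707 and 669 in Trem2-/- nonfoamy and 687, 639, 637 and 690.1 CPM in Trem2-/- foamy libraries. The lowest Trem2-/- nonfoamy value lay just under the highest WT nonfoamy value, and the rise of 0.23 ± 0.07 on the log2 scale (1.17-fold, edgeR adjusted p = 0.0144) was not called with total counts alone as scaling (0.09), in the absence of WT nonfoamy library 4 (0.19) or of Trem2-/- nonfoamy library 2 (0.21).

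Activators differed among themselves. Psme1, the PA28 alpha subunit, was counted at 134, 129.9, 152 and 136 CPM in the WT nonfoamy libraries, 129, 134, 145 and 141 in WT foamy, 159, 167 and 152 in Trem2-/- nonfoamy and 169, 151, 152 and 176 CPM in Trem2-/- foamy libraries. Trem2-/- libraries were above WT libraries in both conditions, by less than 1 CPM at the closest pair of nonfoamy libraries, and the nonfoamy rise was 0.21 ± 0.07 on the log2 scale (1.16-fold, edgeR adjusted p = 0.0203). It was not called with total counts alone (0.07), nor in the absence of WT nonfoamy library 1 or 2 or of Trem2-/- nonfoamy library 1 or 2. Psme3, which forms the nuclear PA28 gamma activator, stood at 110.4, 104, 95.1 and 109.8 CPM in the WT nonfoamy libraries, 92.4, 92.6, 91.4 and 101 in WT foamy, 72.0, 70.4 and 66.8 in Trem2-/- nonfoamy and 72.3, 75.7, 68.4 and 66.9 CPM in Trem2-/- foamy libraries. Here Trem2-/- libraries were below all WT libraries, with a nonfoamy log2 fold change of -0.59 ± 0.07 (0.664-fold, edgeR adjusted p = 2.69e-07).

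The PA28 beta gene Psme2 lies close to Psme1 on chromosome 14 (chr14:55587441-55591113 on GRCm38). It reached 120.5, 118, 132 and 118 CPM in the WT nonfoamy libraries, 100.01, 109.9, 119.6 and 112 in WT foamy, 117, 112 and 109 in Trem2-/- nonfoamy and 117, 112, 114 and 116 CPM in Trem2-/- foamy libraries. Its nonfoamy genotype difference of -0.12 ± 0.07 was not called, nor was it in 16 of 17 alternatives, although the 3 Trem2-/- values lay below the WT values. In Psme2, 28.3% of 50-base stretches recur in its copy Psme2b and in a pseudogene, so reads of these genes may be split. The level of Psme1 relative to Psme2 per length was 94.9 to 99.8% in WT nonfoamy, 105 to 112% in WT foamy, 117 to 129% in Trem2-/- nonfoamy and 116 to 131% in Trem2-/- foamy libraries.

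Psme4, the PA200 activator, had 57.1, 58.9, 46.6 and 62.0 CPM in the WT nonfoamy libraries, 60.0, 57.9, 56.7 and 53.1 in WT foamy, 60.5, 61.6 and 63.0 in Trem2-/- nonfoamy and 62.6, 57.6, 60.8 and 61.0 CPM in Trem2-/- foamy libraries. Its value of 0.13 ± 0.08 was not called and became -0.01 with total counts alone. The proteasome inhibitor PI31, encoded by Psmf1, was counted at 23.4, 26.3, 25.6 and 29.0 CPM in the WT nonfoamy libraries, 27.7, 28.8, 27.9 and 28.9 in WT foamy, 24.2, 24.6 and 28.3 in Trem2-/- nonfoamy and 24.4, 29.2, 23.3 and 27.8 CPM in Trem2-/- foamy libraries. All groups of Psmf1 overlapped (-0.02 ± 0.09).

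**Figure D4:**
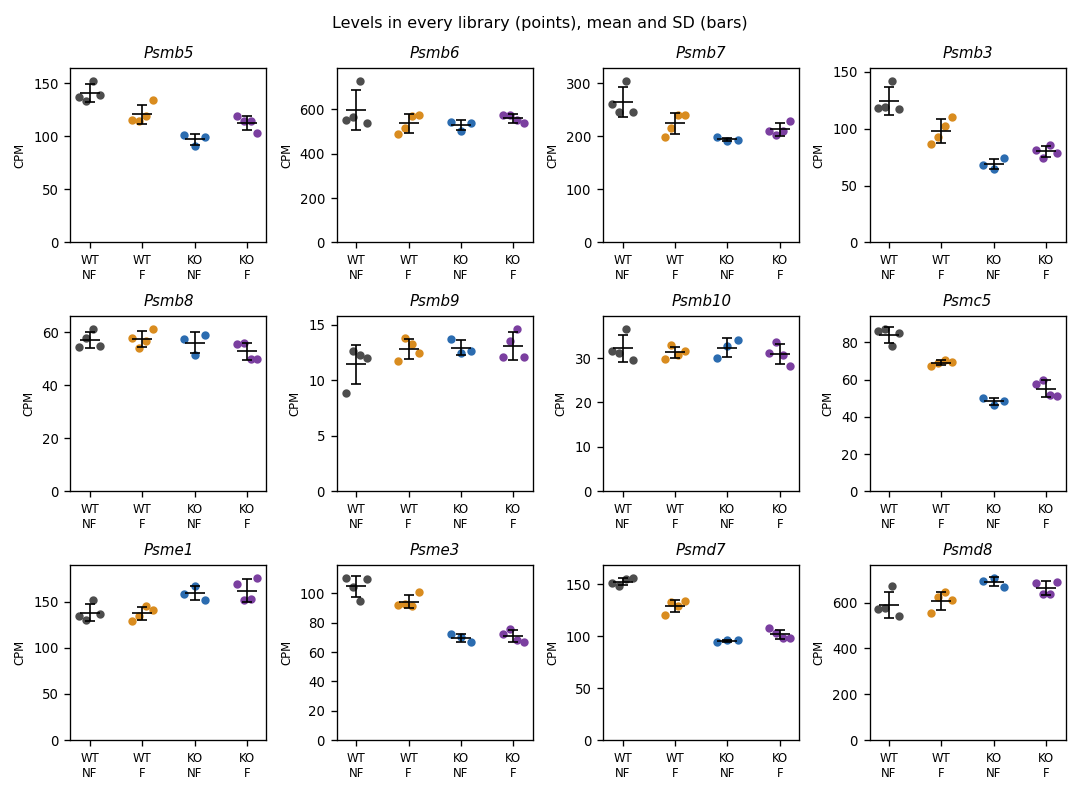
CPM of 12 genes in every library (points) with mean and SD (bars) for WT nonfoamy, WT foamy, Trem2-/- nonfoamy and Trem2-/- foamy cells; NF is nonfoamy, F foamy, KO Trem2-/-, and every axis starts at 0. Psmb5, Psmb7, Psmb3, Psmc5, Psme3 and Psmd7 are lower in Trem2-/- than in WT nonfoamy cells, Psmb8, Psmb9 and Psmb10 overlap across groups, and Psme1 is higher in Trem2-/- cells (152 to 167 against 129.9 to 152 CPM without cholesterol).

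Most assembly factors were lower too. Of 4 chaperones of the 20S core, Psmg1, Psmg2 and Psmg3 fell and Psmg4 was not called. Psmg3 stood at 22.8, 22.9, 28.3 and 27.0 CPM in the WT nonfoamy libraries, 21.1, 20.4, 21.6 and 21.7 in WT foamy, 15.05, 14.5 and 15.3 in Trem2-/- nonfoamy and 15.98, 17.7, 17.4 and 15.1 CPM in Trem2-/- foamy libraries. Psmg1 reached 45.2, 46.4, 50.04 and 42.2 CPM in the WT nonfoamy libraries, 35.7, 43.7, 42.3 and 43.2 in WT foamy, 28.1, 27.6 and 29.2 in Trem2-/- nonfoamy and 33.1, 28.9, 28.5 and 34.9 CPM in Trem2-/- foamy libraries. For both genes WT and Trem2-/- libraries did not overlap. The nonfoamy log2 fold changes were -0.75 ± 0.09 and -0.70 ± 0.09 (edgeR adjusted p = 8.02e-07 and 1.07e-06), and Psmg2 fell by 0.50. Of the chaperones of the 19S base, Psmd9 fell by 0.42 and Psmd5 by 0.20, and Psmd10 was not called. The Psmd5 groups overlapped, and its call was lost in the absence of WT nonfoamy library 1 or 3 or of Trem2-/- nonfoamy library 1 or 3. For Psmd9, 25.5% of exonic bases overlap a gene on the opposite strand, and whether counting used strand is not given in the sources used here.

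Psmc3ip, the recombination cofactor that shares only the symbol, had 14.2, 13.1, 16.2 and 13.3 CPM in the WT nonfoamy libraries, 9.86, 11.3, 12.3 and 13.2 in WT foamy, 5.33, 5.77 and 4.87 in Trem2-/- nonfoamy and 7.84, 6.55, 6.99 and 7.39 CPM in Trem2-/- foamy libraries. The Trem2-/- values were below all WT values (nonfoamy -1.41 ± 0.12, 0.376-fold, edgeR adjusted p = 4.74e-09). It overlaps Mlx on the opposite strand over 21.2% of its exonic bases. Without Psmc3ip, the median over the remaining 47 genes was -0.40, with 31 called lower and 2 higher. In Trem2-/- against WT foamy cells, 18 of these 47 were called lower and 1 higher.

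With cholesterol fewer proteasome genes differed between genotypes. In Trem2-/- against WT foamy cells, 19 of 48 genes were called lower and 1 higher, where 15.9% of all tested genes were called lower and 14.3% higher, and the median log2 fold change was -0.10 (0.00 over all genes). These 19 were all among the 32 called lower without cholesterol. All 32 genes had a smaller absolute change with cholesterol. They were chosen by their call without cholesterol, which by itself favours larger values there. The same share over all genes called lower was not computed. Changes were also smaller over all tested genes, with quartiles of -0.31 and 0.33 without and -0.22 and 0.23 with cholesterol. The ATPases kept all 5 calls (from -0.23 for Psmc3 to -0.33 for Psmc2) and the lid 5 of its 6 (from -0.17 for Psmd12 to -0.34 for Psmd7). Psmg1, Psmg2 and Psmg3 were again lower (-0.39, -0.27 and -0.36), as was Psme3 (-0.41 ± 0.06, edgeR adjusted p = 2.60e-05).

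In the 20S core, by contrast, only Psma4 (-0.23), Psma6 (-0.24) and Psmb3 (-0.29 ± 0.08) were called lower in foamy cells. Psmb5 was not (-0.10 ± 0.07), and it stayed uncalled in 15 of 18 alternatives. Psme1 was again higher, by 0.24 ± 0.07 (edgeR adjusted p = 0.00795), and lost the call with total counts alone (0.11). The Psmd12 call held in 8 of 18 alternatives. It was lost with DESeq2-type size factors, without a filter on low counts, with only the groups compared, and in the absence of any single Trem2-/- foamy library or of WT foamy library 3 or 4. That of Psmd3 was lost in the absence of WT foamy library 1, 2 or 4 or of Trem2-/- foamy library 3 or 4, and that of Psma4 in the absence of WT foamy library 3 or 4 or of Trem2-/- foamy library 2 or 3. Without WT foamy library 1 the median was -0.13 and 18 genes were called lower, and without WT foamy library 4 it was -0.06. With total counts alone as scaling, the median of all genes moved to -0.13 in both genotype comparisons, and the members then had medians of -0.54 without and -0.23 with cholesterol.

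The fitted response to cholesterol lay on opposite sides of 0 in WT and Trem2-/- cells for most proteasome genes, mostly without passing the test. In WT cells 43 of the 48 genes had a fitted change below 0 (48.8% of all genes), with a median of -0.15 against 0.01 over all genes, and in 13 the foamy libraries lay below all nonfoamy ones (5.16% of all genes). By edgeR, 4 genes were called lower and 0 higher, where 1.14% of all genes were called lower. In all, 25 had an unadjusted p under 0.05 (16.4% of all genes), and DESeq2 called 12, all lower (3.79% of the genes to which it gave an adjusted p). In Trem2-/- cells 43 of 48 genes had a fitted change above 0 and 5 below it (48.6% of all genes were below it), with a median of 0.10 (0.00 over all genes). None of the 48 was called there by edgeR, which called 0.140% of all genes. DESeq2 called none of them either, and 0.526% of the genes to which it gave an adjusted p. Of the 48, 8 had an unadjusted edgeR p under 0.05 (6.45% of all genes). In 14 genes the Trem2-/- foamy libraries lay above all nonfoamy ones (5.38% of all genes).

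The 4 genes that fell with cholesterol in WT cells were Psmb3 (-0.34 ± 0.08), Psmc5 (-0.29 ± 0.06), Psmd7 (-0.24 ± 0.05) and Psmd11 (-0.22 ± 0.06), with edgeR adjusted p of 0.0188, 0.0121, 0.0179 and 0.0347. The libraries listed above show the foamy values of each below all nonfoamy values in WT cells. In Trem2-/- cells the same genes had values of 0.22 ± 0.09, 0.19 ± 0.07, 0.10 ± 0.06 and 0.11 ± 0.06. The Psmd11 call held in 8 of 18 alternatives and was lost without a filter on low counts and with only the groups compared. Leaving out WT foamy library 1 left 1 call, Psmc5, and a median of -0.11. With both WT nonfoamy library 3 and WT foamy library 1 left out the median was -0.06 and 2 genes were called. Between 2 and 7 were called in the absence of other single libraries: 2 without WT nonfoamy library 4 or WT foamy library 2, and 7 without WT foamy library 4.

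**Figure D5:**
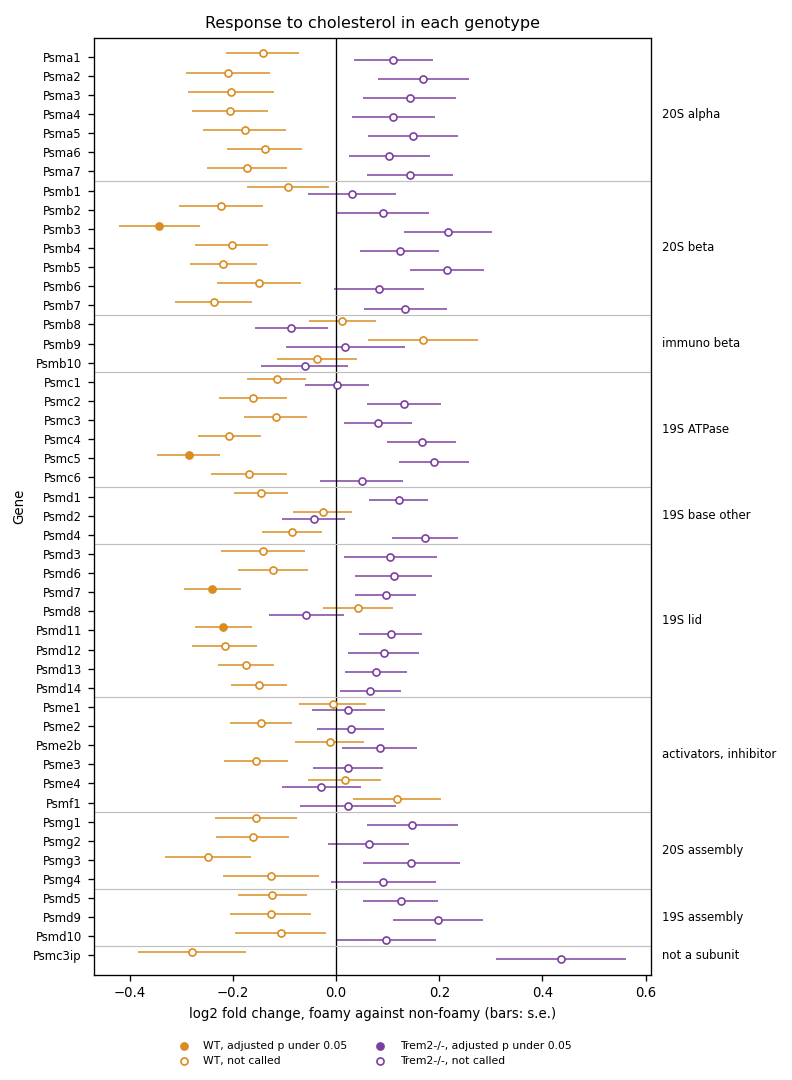
Log2 fold change of foamy against nonfoamy cells for each of the 48 tested genes in WT (orange) and Trem2-/- cells (purple). Bars are s.e. and filled points have an adjusted p under 0.05. For 41 of 48 genes the orange point lies left of 0 and the purple point right of it, and the 4 filled points are Psmb3, Psmc5, Psmd7 and Psmd11 in WT cells.

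In 41 of 48 genes (85.4%) the fitted change was below 0 in WT and above 0 in Trem2-/- cells; this order was seen in 31.5% of all tested genes. Opposite signs in either order were seen in 44 of 48 genes (91.7%) and in 62.9% of all tested genes. The difference of the responses was tested as an interaction, and 1.99% of all genes were called with the higher value in Trem2-/- cells. Of the 48 genes, 7 were called, all in that direction (6 of 47 without Psmc3ip). They were Psmc3ip (0.72 ± 0.16), Psmb3 (0.56 ± 0.12), Psmc5 (0.48 ± 0.09), Psmb5 (0.43 ± 0.10), Psmc4 (0.37 ± 0.09), Psmd7 (0.34 ± 0.08) and Psmd11 (0.32 ± 0.08), with edgeR adjusted p from 0.00494 for Psmc5 to 0.0306 for Psmd11. Because this difference is also the foamy minus the nonfoamy genotype difference, the same 7 values say how much smaller the genotype gap was with cholesterol.

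Psmb5 had -0.22 ± 0.07 with cholesterol in WT and 0.21 ± 0.07 in Trem2-/- cells, and Psmc4 -0.21 ± 0.06 and 0.17 ± 0.07. For Psmc3ip the values were -0.28 ± 0.11 and 0.44 ± 0.13. None of these 6 single responses was called in the main fit. The WT responses of Psmb5 and Psmc4 stayed uncalled in 14 and 13 of 18 alternatives and were called lower in the rest. The interaction calls of Psmb3 and Psmc5 held in the absence of every single library. Those of Psmb5, Psmc3ip, Psmc4, Psmd7 and Psmd11 held in 23, 22, 21, 19 and 14 of 24 alternatives. Among these 24, Psmb5, Psmc3ip and Psmc4 lost the call in the absence of single Trem2-/- libraries. Without both WT libraries that stood apart 7 genes were called and the median difference was 0.18 in place of 0.25. Leaving out Trem2-/- nonfoamy library 1 or 2 left 3 calls, and library 3 of that group or library 1 of the Trem2-/- foamy group left 4. None of the 3 immunoproteasome genes had a called difference of responses, with values of -0.10 ± 0.10 for Psmb8, -0.15 ± 0.16 for Psmb9 and -0.02 ± 0.11 for Psmb10.

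Genes that work with the proteasome but carry other symbols were read from the same fit, and their counts stand beside the shares of all genes given above (22.6% lower and 21.0% higher without cholesterol, 15.9% and 14.3% with it). Among 13 tested subunits and partners outside the symbol rule, 5 fell and 3 rose in Trem2-/- nonfoamy cells. The ubiquitin receptor subunit Adrm1 (-0.54 ± 0.09), its deubiquitinase partner Uchl5 (-0.47 ± 0.08), the core assembly factor Pomp (-0.37 ± 0.08), Txnl1 (-0.35) and the ubiquitin ligase Ube3c (-0.27) fell. The proteasome-associated zinc finger genes Zfand5 (1.01 ± 0.07) and Zfand2a (0.68 ± 0.06) rose, with edgeR adjusted p of 3.64e-10 and 1.02e-08. Ecpas (0.15) was also called higher but lost the call with total counts alone (0.01). In foamy cells 4 of the 13 were called lower and 2 higher. In Adrm1, 25.7% of 50-base stretches are shared with another annotated gene, so its reads may be split.

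Zfand5 and Zfand2a also rose with cholesterol in WT cells (0.30 ± 0.07 and 0.32 ± 0.06, edgeR adjusted p = 0.0207 and 0.00389). Their responses differed between genotypes, by -0.49 ± 0.10 and -0.44 ± 0.09 (edgeR adjusted p = 0.00942 and 0.00587), in the opposite direction to the called subunits.

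Among 11 shuttle factors and genes of the p97 segregase, which deliver ubiquitinated proteins to the proteasome, 5 fell and 2 rose in Trem2-/- nonfoamy cells. Rad23b (-0.42 ± 0.06), the p97 ATPase Vcp (-0.37 ± 0.08), Ubqln4 (-0.37) and Ubqln1 (-0.34) were among those that fell, and Ddi2, the protease that activates NRF1, rose (0.59 ± 0.09). Ufd1 (0.22) lost its call with total counts alone (0.08). In Vcp, 43.6% of 50-base stretches are shared with other annotated genes, so its reads may be split. Ddi2 overlaps Rsc1a1 on the same strand over 18.3% of its exonic bases. In foamy cells 7 of 11 were called lower and 1 higher. With cholesterol in WT cells Ddi2 rose (0.31 ± 0.08) and Rad23b fell (-0.21 ± 0.06), and the Ddi2 response was lower in Trem2-/- cells by 0.49 ± 0.12 (edgeR adjusted p = 0.0236).

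Of 9 genes that control NRF1 and NRF2 and 6 ubiquitin and E1 genes, 3 and 2 were called in nonfoamy cells, beside 43.6% of all tested genes. Among the regulators Bach1, a repressor at antioxidant response elements, rose (0.74 ± 0.08), as did the deglycosylase Ngly1 (0.41 ± 0.10), and Keap1, which holds NRF2 back, fell (-0.31 ± 0.11). Nfe2l1 and Nfe2l2 were not called in any comparison. In the ubiquitin list Rps27a, which encodes a ubiquitin fusion, rose (0.51 ± 0.09), and the E1 enzyme Uba1 fell (-0.37 ± 0.08). In foamy cells 1 of 9 was called higher in the first list, and 2 rose and 2 fell in the second. In Rps27a, 26.3% of 50-base stretches are shared with other annotated genes, so its reads may be split.

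Among 13 interferon and MHC class I genes that act with the immunoproteasome, 6 rose in Trem2-/- nonfoamy cells: the peptide transporter Tap1 (0.79 ± 0.15), the class I heavy chain H2-D1 (0.77 ± 0.07), the light chain B2m (0.74 ± 0.10), the transcription factor Irf1 (0.64 ± 0.10), the loading factor Tapbp (0.56 ± 0.10) and the class I regulator Nlrc5 (0.33 ± 0.09). Nlrc5 lost its call with total counts alone (0.19). Tapbp overlaps other genes over 29.0% of its exonic bases, among them Zbtb22 on the same strand. The chaperones Calr (-0.47) and Pdia3 (-0.27) fell. In foamy cells 4 were called higher (H2-D1, B2m, Irf1 and Tapbp) and 2 lower, Calr among them. Tap1, next to Psmb9 on the opposite strand, thus rose while Psmb9 was not called; 5.79% of the exonic bases of Psmb9 overlap Tap1. With cholesterol, none of the 13 was called in either genotype by edgeR, with 2 genes in WT and 1 gene in Trem2-/- cells at an unadjusted p under 0.05 (16.4% and 6.45% of all genes).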

How the data were processed

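RNA from BV2 cells was sequenced on an Illumina NovaSeq after TruSeq library preparation. Within the CHURP pipeline, the authors used Trimmomatic for trimming, HISAT2 for alignment to mm10 (the build per the labels) and featureCounts for counting by gene. The deposited values are raw counts per gene and library. Whether counting used strand, and how reads with several positions were treated, is not given in the sources used here.

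From these counts, genes were filtered with filterByExpr (minimum count 10), scaled with TMM factors (0.918 to 1.11) and fitted with edgeR 4.0.16 in R 4.3.3 by the quasi-likelihood F-test, with 1 mean per group over all 15 libraries and Benjamini-Hochberg adjustment over 14237 genes. A gene was called at an adjusted p under 0.05. The s.e. of a log2 fold change was taken from the F statistic. CPM are TMM-scaled, lengths and positions come from GENCODE on GRCm38, and promoters from RefSeq. AANNGAAA was added after the matches of the paired GAAA cores had been seen, and both are reported. Tested genes held 99.97% of counts, and libraries of a group differed by more than sampling noise. The biological coefficient of variation was 10.2%.

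Genes given in every library were the catalytic pairs, the activators and inhibitor, genes called in a response or in the difference of responses, and the 5 largest called changes in each direction of each genotype comparison. In the other lists, up to 5 called genes per list and comparison were named, except a few that are not reported here. The members and lists were chosen with earlier results of these data known. Alternatives were DESeq2 1.42.0, DESeq2-type size factors, total counts alone, no filter or a stricter one, only the groups compared, replicate numbers as a block, GC and length trends removed, a log2 fold change of at least 1, and each library left out.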

Additional observations from a re-analysis of the deposited data

Results flagged for a closer look

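In 5 of 60 sets of 4 libraries (the genes shown in every library, in each group of 4), 1 library stood away from the others of its group by Dixon's ratio at the 95% level. Chance flags about 1 in 20 such sets. WT nonfoamy library 3 was high for Psmb6 (730 CPM, 729.6 before rounding, against 538 to 563 CPM in the rest of the group) and for Psmb3 (142 CPM against 117 to 119). WT foamy library 1 was low for Psmd11 (82.4 CPM against 89.1 to 89.7) and for Psmg1 (35.7 CPM against 42.3 to 43.7). WT foamy library 4 was high for Psme3 (101 CPM against 91.4 to 92.6).

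The response to cholesterol differed between Trem2-/- and WT cells, by the interaction test of edgeR, for 7 genes: Psmc3ip (0.72 on the log2 scale), Psmb3 (0.56), Psmc5 (0.48), Psmb5 (0.43), Psmc4 (0.37), Psmd7 (0.34) and Psmd11 (0.32), each with the higher value in Trem2-/- cells.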

How the results depend on the processing

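The direction of the median over the 48 genes was the same in all 5 comparisons under every alternative run, and no alternative called a gene for cholesterol in Trem2-/- cells. A log2 fold change of at least 1 left 1 call without cholesterol between genotypes (Psmc3ip) and 0 in the other comparisons. In WT cells the 4 calls became 12 with DESeq2, 9 with total counts alone, 1 with only the groups compared, 12 with GC and length trends removed, with or without the replicate block, and 2 without both WT libraries that stood apart, an alternative chosen after seeing the data. The median then moved from -0.149 to -0.0583. Single libraries left out gave 1 to 7 calls and medians of -0.181 to -0.105. For the difference of responses the 7 calls became 17 with DESeq2, 19 with total counts alone, 11 without a filter, 18 with trends removed, 14 with trends removed and the block, and 3 to 10 with single libraries left out (medians 0.217 to 0.278), and the median was 0.175 without both WT libraries. Total counts alone gave medians of -0.544 (0 genes higher, 38 lower) and -0.226 (0 higher, 29 lower) in the genotype comparisons without and with cholesterol. The median of all tested genes also moved with this scaling, to -0.13 in both comparisons. Without both WT libraries the medians there were -0.345 (2 higher, 31 lower) and -0.13 (1 higher, 21 lower). Single libraries left out gave 30 to 33 calls (medians -0.436 to -0.346) and 17 to 19 calls (medians -0.13 to -0.0609) there, and 0 calls (medians 0.0864 to 0.119) for cholesterol in Trem2-/- cells. Counts of calls in this section stand without the shares of all genes under the same alternative.

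Values of uncalled genes that changed sign were small. Against WT nonfoamy, Trem2-/- nonfoamy Psmb10 was -0.128 with total counts alone, -0.0181 with the replicate block and -0.0341 to 0.0718 with single libraries left out. Psmb8 was 0.026 with trends removed, 0.0257 with the block as well, 0.0114 without both WT libraries and -0.0626 to 0.0332 with single ones left out. Psme4 was -0.0134 with total counts alone. Psmf1 was 0.0137 with the block, 0.00673 with trends removed, 0.0419 with both and -0.0977 to 0.0346 with single libraries left out. In foamy cells Psmb9 was -0.0941 with total counts alone, -0.0103 without both WT libraries and -0.0252 to 0.0681 with single ones left out, and Psmb10 was -0.0572 to 0.0265. For cholesterol in WT cells Psmb10 was 0.0484 without both WT libraries and -0.0774 to 0.0265 with single ones left out, and Psmb8 was -0.0193 to 0.0454. The causes were not tested.

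Replicate numbers did not pair the libraries (correlations of same-numbered deviations -0.0766 to 0.143). With them as a block the calls were 3 for cholesterol in WT cells, 0 in Trem2-/- cells, 33 and 18 between genotypes and 5 for the difference. The calls of Psma1 (nonfoamy genotype), Psmd3 and Psmd12 (foamy genotype), Psmd11 (cholesterol in WT cells) and Psmd7 and Psmd11 (difference) were not made with the block. Trends removed with the block also left out Psmd3 and added Psmb9 (nonfoamy genotype, 0.261). The lowest count of a tested gene in any library was 147 (Psmc3ip).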
